A study of Mus musculus with 10 samples.

Results

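The genes for the ionotropic and metabotropic receptors of glutamate, GABA and glycine were followed through 10 ATAC-seq peak lists of cultured neural stem cells, taken from the adult mouse subependymal zone (SEZ). ATAC-seq marks open chromatin by the insertion of sequencing adapters by a transposase. The members were all 52 protein-coding genes of GENCODE M21 (GRCm38) with the symbol of a subunit of these receptors, of 21951 protein-coding genes. Their regions were the 439 merged intervals, of 99231 with a peak in at least 2 libraries, whose summit lay in the gene or within 3 kb of one of its starts, and 7 of the 439 belonged to 2 member genes. Of the 439 regions, 294 were found in 5 or more libraries and were tested, and the other 145 were found in 2 to 4 libraries and only counted.

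Wild-type (WT) cultures and cultures without p27 (p27KO), an inhibitor of cyclin-dependent kinases that is the product of Cdkn1b, came from mice aged 10 weeks, and both were studied under 2 conditions. In the proliferating condition (PRO) cells grew as neurospheres in 20 ng/ml EGF and 10 ng/ml FGF. They grew for 3 days per the labels and the methods of the study, whereas its results text names more days. Cells at the onset of differentiation (DIFF) were seeded on Matrigel for 2 days with FGF followed by 24 h in 2% serum with mitogens removed, so mitogens, substrate and serum changed together. WT gave 3 libraries per condition and p27KO 2, each of 50000 cells. The p27KO mice lack the gene in all cells (Cdkn1b-/-), so p27 was absent before the cultures were made. One description field calls the p27KO samples WT, against their titles and genotype. A peak over the Cdkn1b gene was found in 3 of 3 WT PRO, 3 of 3 WT DIFF and 0 of 4 p27KO libraries.

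Glutamate acts on AMPA, kainate and NMDA receptors, which are cation channels, and on metabotropic receptors coupled to G proteins. The delta proteins belong to the same family as the channels and bind synaptic organisers. GABA opens the chloride channels of the GABA-A class and signals through the G protein-coupled GABA-B dimer. Glycine opens chloride channels of the glycine receptor class. These receptors are best known from synapses, but neural progenitors of the SEZ and their progeny also respond to GABA and glutamate, and in immature cells GABA often depolarises. Accessibility of a receptor gene does not show that the receptor is made.

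The lists differed in length, and the number of reads behind them is unknown. They held between 57534 and 91801 peaks, and WT DIFF replicate 3 stood apart from its group with 88738 peaks against 61783 and 57534. A peak was found at 277 to 298 of the 439 receptor regions in WT PRO libraries and at 217, 245 and 363 in WT DIFF libraries, where 363 belongs to replicate 3. The p27KO PRO libraries had a peak at 307 and 326 and the p27KO DIFF libraries at 283 and 286. Receptor regions made up 0.392% to 0.467% of the consensus regions found in a library. All 10 of the listed stem and progenitor promoters, such as Sox2 and Nes, had a peak in every library, but so had 5 of 7 mature neuron promoters and 3 of 5 microglia promoters, so a promoter peak did not tell the cell types apart. Of the 4 endothelial promoters, 0 had a peak in all libraries.

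The receptor regions lay mostly in introns. Of the 439, 362 were intronic, 7 were exonic beyond 3 kb of a start and 70 lay within 3 kb of a start. The number of regions followed gene length (Spearman rho = 0.88 across the 52 genes, which are not independent replicates and share their libraries). Receptor genes are long, with a median of 130 kb against 17.4 kb for all protein-coding genes, and 18 of them held at least 10 regions each and 327 of the 439 regions. Per 100 kb, however, receptor genes of at least 100 kb held 3.2 regions against 4.56 in all protein-coding genes of that length. Fewer of the receptor regions had a peak in all 10 libraries (150, or 34.2%, against 38.2% of all consensus regions). Within 3 kb of a start, 49 of 70 were found in all 10 libraries, whereas 97 of 362 intronic regions were.

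Sequences at the summits of 8 regions, 4 lower and 4 higher at DIFF in WT, are shown first to give the DNA of regions on which the results turn. Each window holds 60 bases on either side of the summit, read from the plus strand of GRCm38.p6, and capitals mark the AP-1 motif TGANTCA, the E-box CAGCTG or the SOX motifs ACAATG and ACAAAG on either strand. The AP-1 and E-box motifs read the same on both strands, and no 2 matches overlap in these windows. The 4 lower at DIFF were these.
Grik4 (chr9:42871845-42871965): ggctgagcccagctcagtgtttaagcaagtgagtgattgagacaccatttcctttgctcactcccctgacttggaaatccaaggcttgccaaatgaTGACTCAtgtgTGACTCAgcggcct
Grm8 (chr6:27646647-27646767): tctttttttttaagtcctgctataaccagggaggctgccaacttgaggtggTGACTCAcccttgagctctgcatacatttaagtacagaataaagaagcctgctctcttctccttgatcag
Grm7 (chr6:110709921-110710041): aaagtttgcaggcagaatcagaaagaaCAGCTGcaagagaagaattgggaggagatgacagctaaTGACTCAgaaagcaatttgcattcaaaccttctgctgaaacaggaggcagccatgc
Grin2a (chr16:9678895-9679015): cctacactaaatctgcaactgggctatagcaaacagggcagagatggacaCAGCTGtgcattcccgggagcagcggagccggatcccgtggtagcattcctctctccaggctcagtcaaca
The 4 higher at DIFF were these.
Grm4 (chr17:27422804-27422924): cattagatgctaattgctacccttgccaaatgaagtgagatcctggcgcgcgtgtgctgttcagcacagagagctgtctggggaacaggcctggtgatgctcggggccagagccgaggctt
Grid1 (chr14:35384579-35384699): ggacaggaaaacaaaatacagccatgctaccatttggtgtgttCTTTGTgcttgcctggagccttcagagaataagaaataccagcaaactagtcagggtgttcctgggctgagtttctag
Grik2 (chr10:49417327-49417447): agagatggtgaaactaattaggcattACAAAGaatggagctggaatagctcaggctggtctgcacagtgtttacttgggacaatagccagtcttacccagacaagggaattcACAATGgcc
Grin3a (chr4:49714308-49714428): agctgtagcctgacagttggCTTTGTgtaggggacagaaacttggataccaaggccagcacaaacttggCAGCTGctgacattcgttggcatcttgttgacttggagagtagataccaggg
The windows of Grik4, Grm8 and Grm7 hold an AP-1 motif, with 2 copies at Grik4, and those of Grm7, Grin2a and Grin3a hold an E-box. The windows of Grid1, Grik2 and Grin3a hold a SOX motif, and that of Grm4 holds none of these. These 8 windows do not give the share of called regions with a motif. That share is given further below and for AP-1 was 5 of the 30 lower regions. The Grm7 region, chr6:110709644-110710508, was chosen after its values were seen because it holds 2 motifs, and it fell in WT (−1.23 ± 0.26 SD units of ranks, explained below, limma adjusted p = 0.00786) and p27KO (−1.99 ± 0.32, adjusted p = 0.0028).

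Promoters of receptor genes were open in most libraries in both conditions and genotypes. A promoter peak was found in all 10 libraries for 39 of the 52 genes (75%, against 62.3% of all protein-coding genes), in 1 to 9 libraries for 10 genes and in none for 3. Among genes of at least 100 kb the shares were close, with 89.3% of receptor genes and 85.8% of all genes. A fold enrichment in a list is the pileup at the summit over the local background, and its percentile is its rank among the peaks of that list. Over the genes with a peak in all libraries, the median of the mean promoter percentile was 72.2 in receptor genes and 84.2 in all protein-coding genes.

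**Figure D1:**
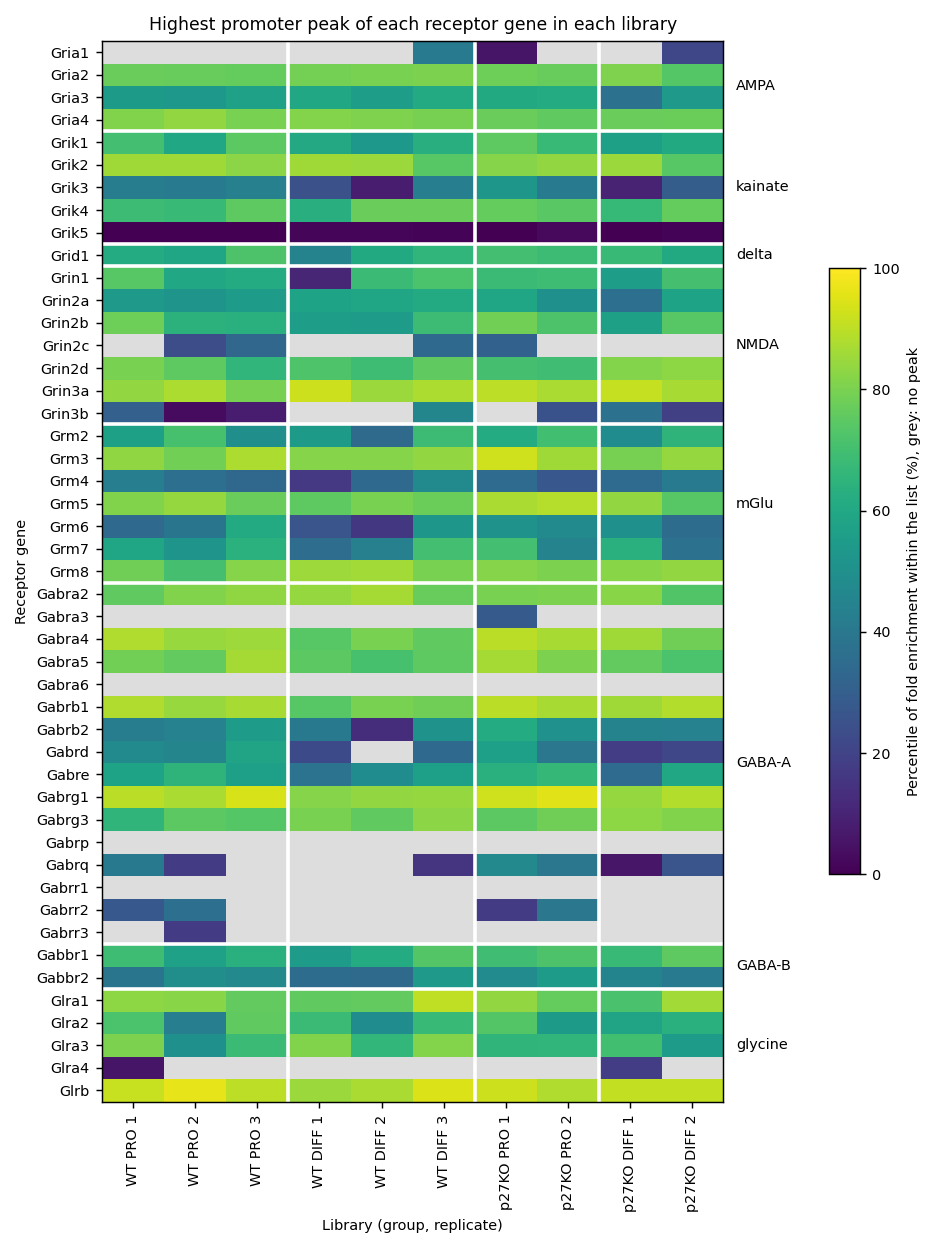
Heat map of the highest peak within 3 kb of a start of 47 of the 52 receptor genes (rows, by class) in each of the 10 libraries (columns), with colour for the percentile of fold enrichment within the list and grey for no peak. Rows of 35 genes are filled in all 10 columns, whereas those of Gabra6, Gabrp and Gabrr1 are grey throughout and that of Grik5 is filled but dark.

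Among AMPA receptor genes, which encode the subunits of fast glutamate channels, Gria1 held 14 regions, Gria2 4, Gria3 9 and Gria4 12. Gria2, Gria3 and Gria4 had a promoter peak in all 10 libraries. Gria1 had one in 3 libraries, 1 each of WT DIFF, p27KO PRO and p27KO DIFF, although 5 of its regions had a peak in every library. Among kainate receptor genes, Grik1 held 11 regions, Grik2 13, Grik3 12, Grik4 23 and Grik5 5, and all 5 had a promoter peak in every library. The delta receptor gene Grid1 held the most regions of any receptor gene, 38, and its promoter had a peak in every library.

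Of the NMDA receptor genes, Grin1, which encodes the obligatory subunit, held 3 regions, Grin2a 8, Grin2b 19, Grin2c 2, Grin2d 3, Grin3a 9 and Grin3b 2. The Grin2c promoter had a peak in 4 libraries and the Grin3b promoter in 7, and the others in all 10. Of the metabotropic glutamate receptor genes, Grm2 held 2 regions, Grm3 12, Grm4 9, Grm5 20, Grm6 1, Grm7 16 and Grm8 18. The promoters of these 7 had a peak in all 10 libraries, Grm6, known from the retina, among them.

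The GABA-A receptor genes showed the widest range of promoter states. Promoter peaks were found in all 10 libraries for 11 genes, among them Gabra2, Gabra4, Gabra5, Gabrb1, Gabrb2, Gabre, Gabrg1 and Gabrg3, which hold 7, 2, 6, 14, 8, 1, 4 and 25 regions in this order. Gabrd, the delta subunit of extrasynaptic receptors, had a promoter peak in 9 libraries and Gabrq in 7, with 1 region each. Gabrr2 held 1 region with a promoter peak in 2 of 3 WT PRO, 2 of 2 p27KO PRO and 0 of 5 DIFF libraries. Gabra3 held 2 regions and Gabrr3 1, each with a promoter peak in 1 library. Gabra6, the subunit of cerebellar granule cells, held 1 region and no promoter peak, and Gabrp and Gabrr1 held no region at all. Gabra4 and Gabrb1 share a promoter region.

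The GABA-B genes, Gabbr1 with 7 regions and Gabbr2 with 18, and the glycine receptor genes Glra1 with 6, Glra2 with 4, Glra3 with 2 and Glrb with 2 had promoter peaks in all 10 libraries. Glra4 held 2 regions and had a promoter peak in 2 libraries. Glrb, the beta subunit that anchors the receptor to gephyrin, had the highest median promoter percentile of the 52 genes, 90.8, with a range of 85.0 to 96.3. The lowest among those found in every library belonged to Grik5, with a median of 0.64 and a range of 0.14 to 2.61.

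The first comparison asked which receptor regions changed from PRO to DIFF in WT. The score of a region was the normal score of its rank in a library among all 70627 tested regions. A region without a peak was tied at the bottom. A change is thus in SD units of ranks and is no fold of signal. The percentiles rank a peak among the peaks of its list alone, so a change can depart from them. In a shorter list more regions are tied at the bottom, and the same percentile can give a higher score. Of 294 tested receptor regions, 64 changed (21.8%), against 19.2% of all 70627 tested regions (limma, adjusted p under 0.05 over all regions). Of these, 30 were lower and 34 higher at DIFF, or 10.2% and 11.6% of the receptor regions, against 10.1% lower and 9.15% higher among all regions. The median change was 0.08 in receptor regions and 0.03 in all. Of the 64, 5 had a peak in the 5 DIFF libraries and no other and 2 in the 5 PRO libraries and no other, so that the filter of 5 libraries had fixed their direction, and such regions were 952 and 1657 of the 13568 called among all regions. Regions with a peak in every library of a single condition met the filter through that condition alone. Where the other condition had few peaks, the test is no independent support for the direction. Without WT DIFF replicate 3, 46 receptor regions changed, 21 lower and 25 higher. Leaving out other WT libraries gave 34 without WT DIFF replicate 1, 38 without WT DIFF replicate 2, 41 without WT PRO replicate 2 and 39 without WT PRO replicate 3.

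Changes were found away from the starts. Of 61 tested receptor regions within 3 kb of a start, 2 changed (3.28%), against 7.09% of the 17905 promoter regions of all genes. In gene bodies beyond 3 kb of a start, 62 of 233 receptor regions changed (26.6%), against 24.5% of 24996. The median distance to the nearest start was 128 kb for receptor regions that changed in WT and 66.6 kb for the others. The regions that changed had a peak in a median of 8 libraries and the others in 10. Across genes, 26 of the 47 with a tested region held at least 1 that changed in WT, and 14 held regions of both directions (55.3% and 29.8%, against 27% and 6.25% of all protein-coding genes with a tested region). Receptor genes had more tested regions, a median of 5 against 2. Among genes of at least 100 kb the medians were 9 and 6, and the shares 85.2% and 51.9% in 27 receptor genes and 69.9% and 30.1% in all 2459. Grin2b, with 3 lower and 1 higher region, was among them.

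**Figure D2:**
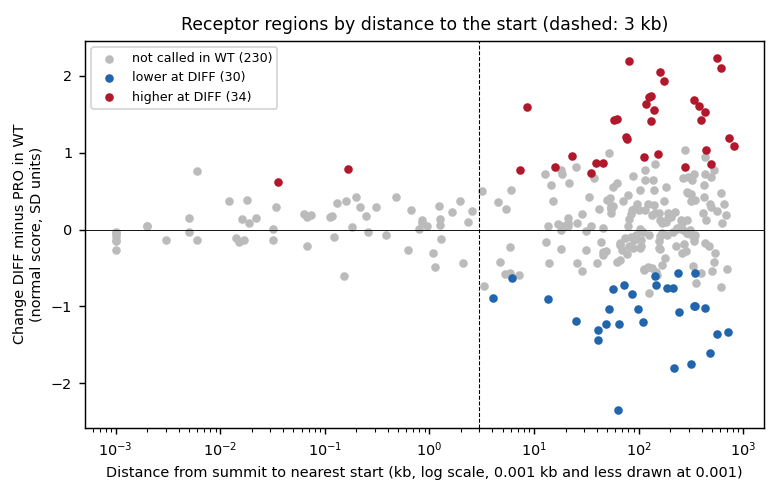
Change from PRO to DIFF in WT (y axis, normal score, SD units) of the 294 tested receptor regions against the distance from the summit to the nearest start (x axis, kb, log scale), coloured by the limma call. Left of the dashed line at 3 kb, 2 of 61 regions are called, both higher, and right of it 62 of 233.

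In p27KO cultures, 37 of the 294 receptor regions changed (12.6%), against 12.3% of all tested regions, with 17 lower and 20 higher, where 6.48% of all regions were lower and 5.83% higher. This comparison rests on 2 libraries per condition, against 3 in WT, so the numbers of calls cannot be set against each other. Of the 61 regions within 3 kb of a start 0 were called (limma; 2 had an unadjusted p under 0.05), against 3.76% of all promoter regions, and 37 of 233 in gene bodies were (15.9%, against 16.3%). The count was 19 without p27KO PRO replicate 1, 22 without p27KO PRO replicate 2, 19 without p27KO DIFF replicate 1 and 16 without p27KO DIFF replicate 2. The 2 genotypes share no libraries. Of the 64 regions called in WT, 62 had the same sign in p27KO, and 30 were called in both, 13 lower and 17 higher, each with the same sign. These shares, 96.9% and 46.9%, were close to those of all 13568 regions called in WT, 97.2% and 51.2%.

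**Figure D3:**
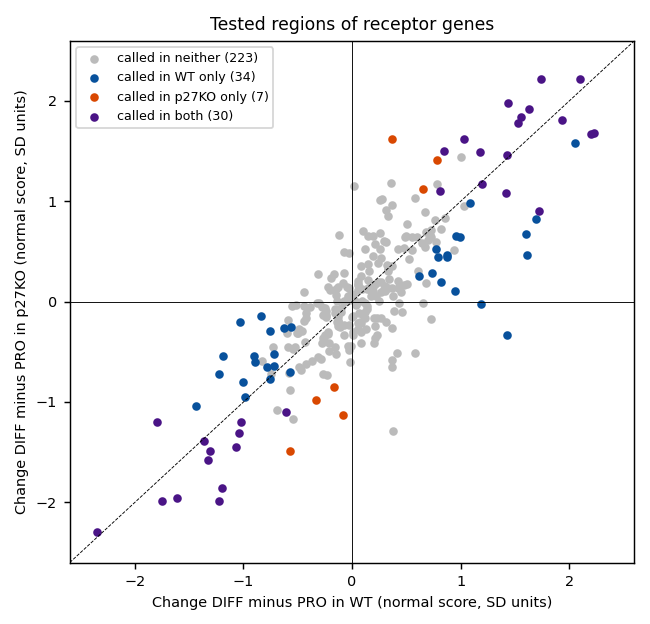
Change from PRO to DIFF in p27KO (y axis) against WT (x axis), both in normal score (SD units), for the 294 tested receptor regions, with the line of equal change dashed. Of the 30 regions called in both genotypes, 13 lie at negative values on both axes and 17 at positive values on both.

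By class, the share of tested regions called in WT was 30.2% for GABA-A (16 of 53), 25.8% for NMDA (8 of 31), 23.9% for delta (11 of 46), 23.5% for GABA-B (4 of 17), 19.5% for kainate (8 of 41), 19.4% for metabotropic glutamate (13 of 67), 14.8% for AMPA (4 of 27) and 0 for glycine receptors (limma, 0 of 12, with 2 at an unadjusted p under 0.05). In p27KO the shares were 11.3%, 16.1%, 21.7%, 5.88%, 14.6%, 10.4%, 3.7% and 8.33% in the same order. NMDA regions were lower more than higher in WT (6 and 2) and metabotropic regions higher more than lower (9 and 4), whereas in p27KO 3 NMDA regions were lower and 2 higher and 5 metabotropic regions lower and 2 higher. Of all tested regions, 19.2% were called in WT, 10.1% lower and 9.15% higher. In p27KO 12.3% of all tested regions were called, 6.48% lower and 5.83% higher. The classes were not tested against each other or against all regions.

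**Figure D4:**
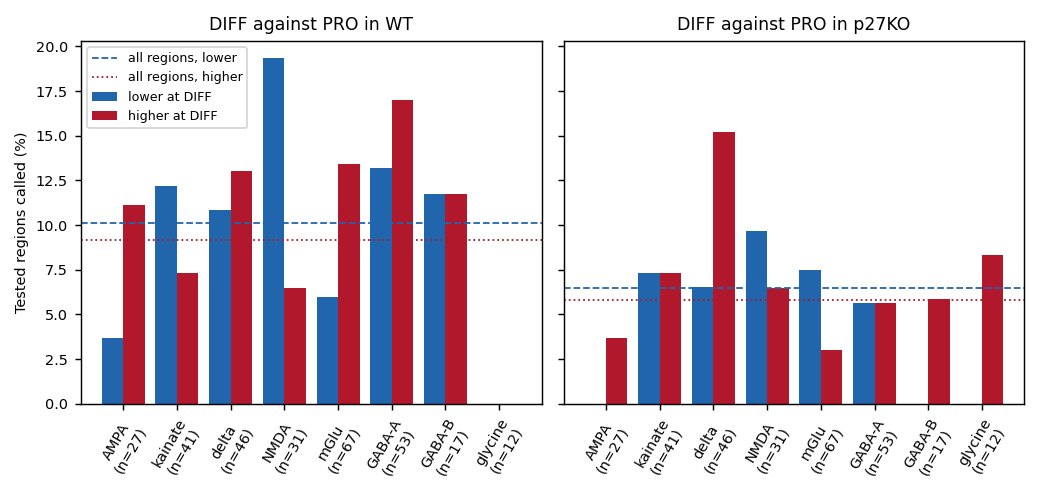
Share of the tested regions of each receptor class called lower or higher at DIFF by limma in WT (left) and p27KO (right), in percent of the class, with n the number tested and lines for all 70627 tested regions. GABA-A regions reach 30.2% called in WT in both directions together and glycine receptor regions 0, with 12 regions tested.

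Among AMPA receptor genes, the region with the largest change lay 125 kb from the start in an intron of Gria3, at chrX:41527656-41528010. It had no peak in the 3 WT PRO libraries and percentiles of 42.2, 45.1 and 61.9 in WT DIFF, against 37.0 and 43.1 in p27KO PRO and 64.6 and 61.6 in p27KO DIFF. The groups did not overlap in either genotype. The change was 1.72 ± 0.17 (SE) in WT (limma, adjusted p = 0.000117) and 0.90 ± 0.21 in p27KO (adjusted p = 0.0167, and 0.0604 to 0.132 without p27KO PRO replicate 1 or either p27KO DIFF replicate). This region met the filter of 5 libraries through DIFF alone, so its WT test is no independent support for the rise.

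An intronic region of Gria4, at chr9:4453928-4454416, was likewise without a peak in WT PRO and reached percentiles of 58.7, 36.8 and 52.2 in WT DIFF, with 23.1 and 22.1 in p27KO PRO and 55.9 and 26.3 in p27KO DIFF. It rose in WT (1.69 ± 0.23, adjusted p = 0.000592) and its change in p27KO was 0.82 ± 0.28 (adjusted p = 0.089). The Gria4 region likewise met the filter through DIFF alone, so its WT test is no independent support for the rise. A region of Gria1, 38.8 kb from the start at chr11:57051594-57052465, had a peak in every library, with percentiles of 73.1, 54.5 and 68.6 in WT PRO and 87.4, 80.5 and 92.4 in WT DIFF. It rose in WT (0.87 ± 0.20, adjusted p = 0.0121; 0.0552 without WT PRO replicate 2), while the p27KO groups, 83.7 and 76.9 against 82.0 and 91.3, overlapped (0.44 ± 0.25, adjusted p = 0.302).

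The largest change of any receptor region was a fall in an intron of Grik4, which encodes a high-affinity kainate receptor subunit, at chr9:42871550-42872232 and 63.2 kb from the start. Percentiles were 94.8, 91.5 and 86.4 in WT PRO and 85.9 and 86.4 in p27KO PRO. Of the 5 DIFF libraries, WT DIFF replicate 3 alone had a peak, at 25.5. The change was −2.35 ± 0.19 in WT (adjusted p = 6.50e-05) and −2.30 ± 0.23 in p27KO (adjusted p = 0.000359). This region met the filter of 5 libraries through PRO alone, so its test is no independent support for the fall. Its summit window is the one with 2 AP-1 motifs.

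Kainate receptor genes also held regions that were found in DIFF libraries alone. A region of Grik2 at chr10:49416823-49417619, 118 kb from the start, had percentiles of 58.7, 27.1 and 52.2 in WT DIFF and 55.9 and 52.2 in p27KO DIFF, and no peak in the 5 PRO libraries. With a peak in exactly 5 libraries it reached the test through DIFF alone, so its direction was fixed by the filter and it is given as presence, with no test. A region of Grik3 at chr4:125629394-125630070 showed the same pattern, with 31.0, 50.3 and 48.8 in WT DIFF and 54.4 and 47.8 in p27KO DIFF, and for the same reason has no test. At Grik2 another intronic region, at chr10:49437031-49437380, fell in both genotypes (−1.04, adjusted p = 0.0316, and −1.31, adjusted p = 0.0394). In p27KO it had a peak in each PRO library and in no DIFF library. Its p27KO test is thus no independent support for the fall.

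The delta receptor gene Grid1 held a pair of neighbouring intronic regions, 565 kb and 610 kb from the start, that rose in both genotypes. That at chr14:35384461-35384985 had no peak in WT PRO, percentiles of 75.4, 71.6 and 66.5 in WT DIFF, a peak at 17.4 in p27KO PRO replicate 1 and none in replicate 2, and 64.6 and 52.2 in p27KO DIFF. Its change was 2.23 ± 0.22 in WT (adjusted p = 0.000117) and 1.68 ± 0.27 in p27KO (adjusted p = 0.00248). That at chr14:35430183-35430912 had a peak at 11 in WT PRO replicate 1 and in no other PRO library, 83.7, 57.4 and 73.9 in WT DIFF and 64.6 and 67.2 in p27KO DIFF.

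The latter rose by 2.10 ± 0.23 in WT (adjusted p = 0.000184) and by 2.22 ± 0.28 in p27KO (adjusted p = 0.000839). Both Grid1 regions met the filter of 5 libraries through DIFF alone, so their tests are no independent support for the rise.

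Of the NMDA receptor genes, Grin2a fell at each of its 3 called regions. The largest fall was at chr16:9678606-9679195, 314 kb from the start, with percentiles of 88.6, 73.2 and 79.2 in WT PRO, none, none and 38.1 in WT DIFF, 82.2 and 75.3 in p27KO PRO and no peak in p27KO DIFF. The change was −1.75 ± 0.22 in WT (adjusted p = 0.000344) and −1.99 ± 0.27 in p27KO (adjusted p = 0.00107). Grin3a moved the other way. Its region at chr4:49714122-49714544 had a peak at 5.14 in WT PRO replicate 3 and in no other PRO library, and 61.4, 27.1 and 74.9 in WT DIFF and 78.0 and 52.2 in p27KO DIFF, and rose by 1.74 ± 0.27 (adjusted p = 0.00119) and 2.22 ± 0.33 (adjusted p = 0.00174). The Grin2a region at chr16:9678606-9679195 met the filter of 5 libraries through PRO alone and this Grin3a region through DIFF alone. Their tests are thus no independent support for the directions.

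Grin2b encodes the subunit that prevails in immature NMDA receptors. Its region at chr6:136130432-136130776 had percentiles of 62.4, 65.0 and 48.7 in WT PRO and 28.3 and 68.8 in p27KO PRO, and no peak in any DIFF library. It reached the filter of 5 libraries through PRO alone, so a fall was fixed and no test is given. Another Grin2b region, at chr6:136113230-136114168 and found in every library, rose in both genotypes (1.43, adjusted p = 0.00408, and 1.46, adjusted p = 0.0157).

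The metabotropic receptor gene Grm4 held the largest rise but one of all receptor regions, at chr17:27422384-27423328 and 80.4 kb from the start. It had no peak in WT PRO and percentiles of 69.6, 56.6 and 79.2 in WT DIFF, with 17.4 and 16.6 in p27KO PRO and 72.8 and 68.1 in p27KO DIFF. The change was 2.20 ± 0.17 in WT (adjusted p = 5.67e-05) and 1.67 ± 0.21 in p27KO (adjusted p = 0.000785). This Grm4 region met the filter of 5 libraries through DIFF alone, so its WT test is no independent support for the rise. Grm8, a presynaptic group III receptor gene like Grm4, held regions of both directions. That at chr6:27646458-27647097 had 80.9, 70.7 and 76.7 in WT PRO, a single WT DIFF peak of 34.3 in replicate 3, 75.5 and 80.8 in p27KO PRO and none in p27KO DIFF, and fell by 1.61 ± 0.19 (adjusted p = 0.000285) and by 1.96 ± 0.24 (adjusted p = 0.00068). It met the filter of 5 libraries through PRO alone, so its test is no independent support for the fall.

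The Grm8 region at chr6:27745838-27746697 was found in all WT DIFF libraries, at 28.2, 41.1 and 61.9, and in no WT PRO library. In p27KO it had a peak in every library, at 37.0 and 16.6 in PRO and 24.4 and 35.5 in DIFF, and these groups overlapped. It rose in WT (1.61 ± 0.18, adjusted p = 0.000193), and its change in p27KO was 0.46 ± 0.22 (adjusted p = 0.208). The region met the filter of 5 libraries through DIFF alone, so its WT test is no independent support for the rise. The test of the difference between genotypes gave −1.14, with an unadjusted p = 0.00181 and an adjusted p = 1 by limma.

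In the GABA-A class, Gabrb2 rose at chr11:42581541-42582446, where WT PRO had a single peak of 40.5 in replicate 1, WT DIFF 87.7, 48.5 and 87.6, p27KO PRO 11.4 and 39.8 and p27KO DIFF 82.1 and 65.5. The change was 2.05 ± 0.39 in WT (adjusted p = 0.00407) and 1.58 ± 0.48 in p27KO (adjusted p = 0.0541). This Gabrb2 region met the filter of 5 libraries through DIFF alone, so its WT test is no independent support for the rise. Gabrg3, a gene for a gamma subunit, held a region at chr7:57214079-57214428, which had a peak in DIFF libraries alone, at 83.7, 48.5 and 44.4 in WT and 46.9 and 52.2 in p27KO. The Gabrg3 region was found in exactly 5 libraries and reached the filter through DIFF alone, so no test is given.

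Gabrb1 fell at chr5:71917045-71917847, 217 kb from the start. Percentiles were 87.5, 69.3 and 82.7 in WT PRO, none, none and 30.1 in WT DIFF, 83.4 and 72.8 in p27KO PRO and 24.4 and 21.1 in p27KO DIFF, with no overlap of conditions. The change was −1.80 ± 0.21 in WT (adjusted p = 0.00028) and −1.20 ± 0.26 in p27KO (adjusted p = 0.0131, and 0.0583 to 0.1 without p27KO PRO replicate 1 or either p27KO DIFF replicate). This region met the filter of 5 libraries through PRO alone, so its WT test is no independent support for the fall.

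Of the GABA-B genes, Gabbr2, which encodes the subunit that couples to G proteins, changed at 4 of 13 tested regions in WT, 2 of each direction. Gabbr1 changed at 0 of its 4 tested regions, against 19.2% of all tested regions in WT. By limma, 0 of the 4 had an unadjusted p under 0.05 in WT and 1 in p27KO. The Gabbr1 region at chr17:37055017-37055649 had a peak in each p27KO DIFF and in no p27KO PRO library. The Gabbr2 region at chr4:46854783-46855756 rose from 20.5, 35.4 and 50.3 in WT PRO to 85.9, 79.2 and 79.5 in WT DIFF, with 55.2 and 29.9 in p27KO PRO and 70.7 and 75.4 in p27KO DIFF. The change was 1.42 ± 0.25 (adjusted p = 0.00232) and 1.08 ± 0.30 (adjusted p = 0.0392, and 0.0639 with a replicate block). In p27KO this call was lost without any of 7 of the 10 libraries, with adjusted p between 0.0535 and 0.267.

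A Gabbr2 region just outside the promoter window, 4.04 kb from the start at chr4:46728223-46728602, fell from 57.0, 74.7 and 62.2 in WT PRO to 18.9, 14 and 22.5 in WT DIFF (−0.89 ± 0.24, adjusted p = 0.025). In p27KO it had 59.4 and 57.6 in PRO and 32.0 and 7.15 in DIFF (−0.60 ± 0.30, adjusted p = 0.231). The region at chr4:46811055-46811592 had 36.7, 60.1 and 55.1 in WT PRO and a single WT DIFF peak of 38.1 in replicate 3, so the groups overlapped (−0.84 ± 0.23, adjusted p = 0.024). In p27KO it had 46.9 and 49.2 in PRO and 18.3 and 35.5 in DIFF (−0.14 ± 0.28, adjusted p = 0.813). The WT call was lost for the former without WT PRO replicate 2 or 3 or WT DIFF replicate 1 or 3 (adjusted p 0.0512 to 0.0905) and for the latter without WT PRO replicate 2 or 3 or WT DIFF replicate 1 or 2 (0.0658 to 0.112).

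Glycine receptor genes held 1 called region, in p27KO. There, an intronic region of Glra1, which encodes the main alpha subunit of the adult spinal cord, was called at chr11:55589304-55589958. It had a peak at 5.8 in p27KO PRO replicate 1, none in replicate 2, and 60.6 and 21.1 in p27KO DIFF, and in WT it had no PRO peak and none, 2.16 and 25.5 in DIFF. The change was 1.41 ± 0.32 in p27KO (adjusted p = 0.0146, and 0.148 without p27KO PRO replicate 2) and 0.78 ± 0.26 in WT (adjusted p = 0.0561). The region was found in exactly 5 libraries, 2 of WT DIFF, 1 of p27KO PRO and 2 of p27KO DIFF. It thus reached the filter mostly through DIFF, where it is high, and the test is no independent support for the rise.

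**Figure D5:**
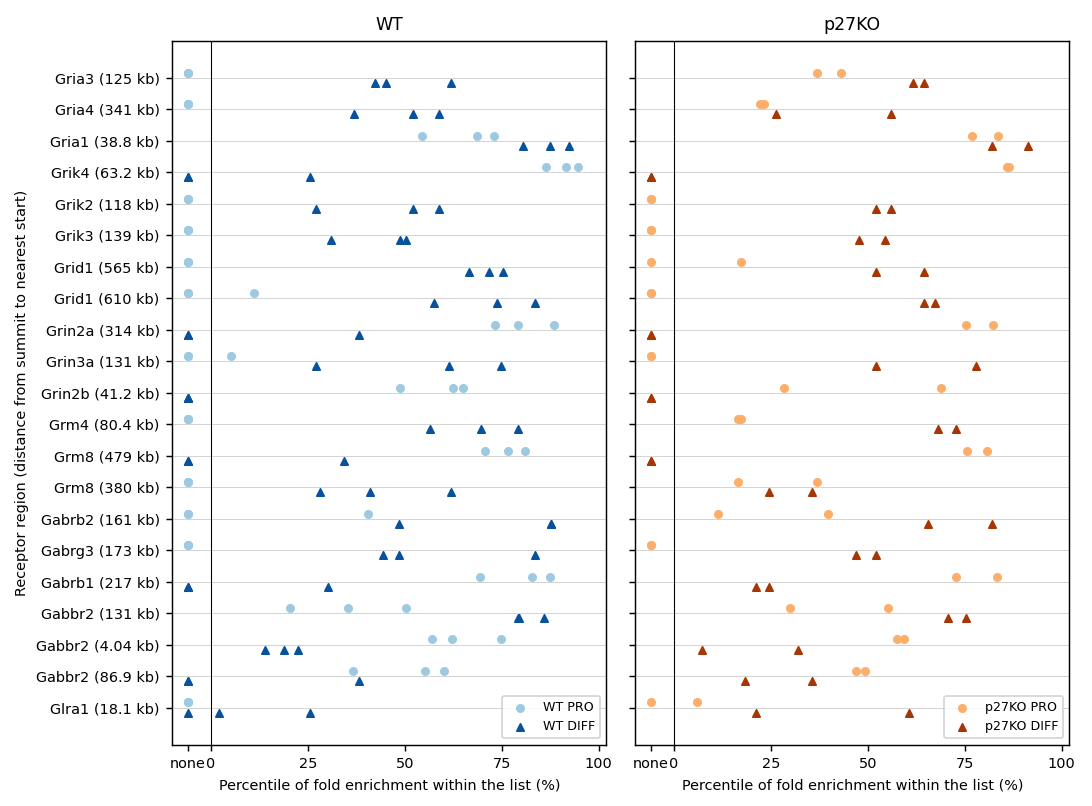
Percentile of fold enrichment within the list (x axis, %) for 21 receptor regions with the largest changes of their class (y axis, with the distance to the nearest start), in WT (left) and p27KO (right) libraries, with circles for PRO, triangles for DIFF and "none" for no peak. At Grik4 the PRO circles lie between 85.9 and 94.8 and a single DIFF library has a peak, and at Grik2, Grik3 and Gabrg3 no PRO library has one.

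By presence alone, 12 receptor regions closed at DIFF in WT, with a peak in all 3 PRO and no DIFF library (2.73%, against 4.32% of the 99231 consensus regions), and 15 opened (3.42%, against 1.86%). In p27KO, where 2 libraries a condition make either state easier to meet, 41 closed (9.34%, against 10.9%) and 23 opened (5.24%, against 3.32%). The 12 became 34 without WT DIFF replicate 3 and 19 without WT PRO replicate 1 or 3, and the 15 became 30 without WT DIFF replicate 2. In p27KO the 23 became 38 and 45 without p27KO DIFF replicate 1 and 2. With lists of equal length, 21 regions closed and 31 opened in p27KO, so the larger number was then that of opened regions. In both genotypes 4 regions closed (0.911%, against 2.61% of all consensus regions), at Gria1 (chr11:57140155-57140683), Grid1 (chr14:35254422-35254851), Grin2b (chr6:136130432-136130776) and Gabrg3 (chr7:57357896-57358416). Opened in both were 5 (1.14%, against 0.959%), among them the Grik2, Grik3 and Gabrg3 regions given above and 1 in Grm5 at chr7:87664129-87664333.

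At promoters, tested with the region nearest a start, 2 of 43 receptor genes changed in WT (4.65%, against 3.49% of 15062 promoters), both higher at DIFF, and Gabrg1, which encodes a gamma subunit, is described here. No receptor promoter changed in p27KO (0 of 43 by limma, against 1.41%), where 2 had an unadjusted p under 0.05 (4.65%, against 16.4% of all promoters). In WT 5 of 43 had an unadjusted p under 0.05 by limma (11.6%, against 22.7% of all promoters). At Gabrg1 the region 165 bp from the start, chr5:70841977-70842639, had percentiles of 51.9, 49.1 and 40.8 in WT PRO and 79.2, 67.2 and 68.4 in WT DIFF, and 61.4 and 47.6 in p27KO PRO and 67.6 and 55.8 in p27KO DIFF. WT groups did not overlap, whereas those of p27KO did. The change was 0.79 ± 0.18 in WT (adjusted p = 0.037 over promoters) and 0.44 ± 0.22 in p27KO (adjusted p = 0.348).

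A neighbouring Gabrg1 region with its summit 617 bp from the start had higher percentiles and a change that did not pass the test, with 89.8, 87.3 and 93.8 in WT PRO and 81.8, 83.6 and 84.0 in WT DIFF (−0.27 ± 0.19, adjusted p = 0.343 over regions). The call at the Gabrg1 promoter did not hold without any one of the 3 WT PRO libraries, WT DIFF replicate 1 or 2 or either p27KO PRO replicate (0 receptor promoters called). It held without WT DIFF replicate 3 (1.00, adjusted p = 0.0181), when the Grik5 promoter was called as well, and without either p27KO DIFF replicate.

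Promoter sequences of the RefSeq table for GRCm38.p6, with 250 bases before and 50 after the start, were given for 36 of the 52 genes (69.2%), under the 80% needed for a comparison of base composition, which was void and is not given. Gabrg1 is shown as a called promoter, with CpG sites in capitals, beside Glrb with the highest promoter percentile (of the highest peak within 3 kb) and Gabrp without a promoter peak. Glrb and Gabrp were chosen after their values were seen.
Gabrg1 (chr5:70842568-70842867): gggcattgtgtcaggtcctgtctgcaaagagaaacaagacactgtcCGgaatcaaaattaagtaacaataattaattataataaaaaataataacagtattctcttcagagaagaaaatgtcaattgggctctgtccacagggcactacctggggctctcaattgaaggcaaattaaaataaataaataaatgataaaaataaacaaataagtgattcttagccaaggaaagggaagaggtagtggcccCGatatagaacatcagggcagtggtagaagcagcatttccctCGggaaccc
Glrb (chr3:80913611-80913910): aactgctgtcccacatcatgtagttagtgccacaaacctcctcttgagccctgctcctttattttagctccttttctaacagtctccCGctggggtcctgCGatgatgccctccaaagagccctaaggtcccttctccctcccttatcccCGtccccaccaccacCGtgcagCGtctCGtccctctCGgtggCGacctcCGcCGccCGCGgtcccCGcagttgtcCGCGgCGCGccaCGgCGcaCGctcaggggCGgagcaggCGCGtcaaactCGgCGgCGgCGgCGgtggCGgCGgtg
Gabrp (chr11:33578908-33579207): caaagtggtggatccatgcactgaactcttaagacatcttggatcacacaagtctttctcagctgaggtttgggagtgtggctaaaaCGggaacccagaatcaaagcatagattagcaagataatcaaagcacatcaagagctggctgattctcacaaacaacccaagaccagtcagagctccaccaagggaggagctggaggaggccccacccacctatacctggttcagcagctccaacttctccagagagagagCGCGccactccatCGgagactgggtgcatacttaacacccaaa
All 3 lie on the minus strand and are written 5′ to 3′. CpG sites numbered 3 at Gabrg1, 30 at Glrb and 4 at Gabrp, and the GC content was 38.3%, 65.7% and 50.3%.

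Between genotypes, no receptor region was called by limma. For the interaction of genotype and condition, 0 of 294 regions were called (0% of all regions) and 15 (5.1%) had an unadjusted p under 0.05, against 3.91% of all regions. For p27KO against WT at DIFF, 0 were called (0.0156% of all regions), with a lowest adjusted p = 0.714 by limma. There 16 had an unadjusted p under 0.05 (5.44%, against 4.91% of all regions). At PRO, 0 were called (0.034% of all), with a lowest adjusted p = 0.151 by limma, at the Gria3 region above. An unadjusted p under 0.05 was found at 13 (4.42%, against 5.53% of all regions). Promoters gave 0 of 43 in the interaction (0% of all), at DIFF (0.0332%) and at PRO (0.0398%). An unadjusted p under 0.05 by limma was found at 0, 2 and 0 of them, against 4.01%, 4.99% and 4.87% of all promoters. These counts do not show that the genotypes are alike.

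The comparison of genotypes carries a further difference between cultures. Of 10 promoter regions on chromosome Y, 4 had a peak in all 6 WT and in 0 of 4 p27KO libraries, whereas 6 had a peak in some p27KO library. The 6 X-linked receptor genes, Gria3, Gabra3, Gabre, Gabrq, Glra2 and Glra4, held 13 tested regions with a median p27KO minus WT change of 0.20 at PRO and 0.27 at DIFF, and 3 and 1 of them had an unadjusted p under 0.05. Over all 294 tested receptor regions these medians were 0.01 and −0.04. Of all tested regions, 5.53% at PRO and 4.91% at DIFF had an unadjusted p under 0.05 by limma. The part of the difference between cultures in these values was not tested.

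Motif content was described in windows of 201 bases around the summits, on both strands. AP-1 was found at 5 of the 30 receptor regions lower at DIFF in WT (16.7%), 0 of the 34 higher and 18 of the 230 others (7.83%), against 24.7% of all regions lower, 4.38% of all higher and 8.36% of all tested regions. The 5 lie in Grik4, Grid1, Grin2b, Grm7 and Grm8. The E-box was found at 10 of 30 lower (33.3%) and 4 of 34 higher receptor regions (11.8%), against 34.7%, 16.1% and 21.5% of all regions lower, higher and tested. A SOX motif was found at 9 of 30 (30%) and 14 of 34 (41.2%), against 38.3%, 33.5% and 29.0%. The NFI motif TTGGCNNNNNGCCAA was at 0 of 294 receptor regions (0.116% of all), part of the RE1 motif (TTCAGCACC or GGACAGNGC) at 8 (2.72%, against 2.06%) and the E2F motif TTCCCGCC at 2 (0.68%, against 0.879%). A match is no proof of binding, and no match says only that these letters are not in the window.

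Other genes of glutamatergic, GABAergic and glycinergic synapses had open promoters as well. Of 58 genes listed by role, 50 had a promoter peak in all 10 libraries, 7 in some and 1, Grip2, in none. The 7 included the vesicular transporters Slc32a1, with peaks in all 5 PRO and 0 of 5 DIFF libraries, and Slc17a8, with 1 peak, and the auxiliary subunit Cacng5, also with peaks in all 5 PRO and no DIFF library. Median percentiles were low, 18.7 at Slc32a1 and 27.7 at Cacng5. The Cacng5 promoter was not called (limma, adjusted p = 0.293 in WT and 0.176 in p27KO). Of all consensus regions, 2.61% had this split of PRO and DIFF, and the share of promoters is not given here. Of 54 tested promoters, 0 changed in p27KO by limma, against 1.41% of all promoters. There 9 of the 54 had an unadjusted p under 0.05, where 16.4% of all promoters had one. In WT 2 of the 54 changed (3.7%, against 3.49% of all promoters), both higher at DIFF. These were Grip1, which encodes a scaffold of AMPA receptors (1.22 ± 0.19, adjusted p = 0.00461; 0.76 ± 0.23 and adjusted p = 0.148 in p27KO), and Shmt2, a mitochondrial enzyme that makes glycine from serine (0.79 ± 0.16, adjusted p = 0.0202; 0.40 ± 0.20 and 0.328 in p27KO). By role these were 1 of 7 genes of synthesis and breakdown, 0 of 2 tested vesicular transporters, 0 of 8 uptake transporters, 0 of 17 auxiliary subunits and 1 of 20 scaffolds and organisers. Among culture markers in WT, 1 of 5 tested astrocyte promoters was called, Gfap (0.62 ± 0.16, adjusted p = 0.0479), with values of −0.09 to 0.37 for the others. Of 4 tested microglia promoters 1 was called, P2ry12 (−0.79 ± 0.15, adjusted p = 0.0156), with values of −0.66 for Tmem119, 0.14 for Aif1 and 0.66 for Csf1r, and their part in the receptor values was not tested.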

How the data were processed

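ATAC-seq was performed on 10 libraries of 50000 cells. The authors clipped adapters with Cutadapt, trimmed with Trimmomatic, mapped reads with Bowtie2 to GRCm38, used Picard for duplicates and called peaks in each library with MACS2. Versions and any read shift are not given in the sources used here. The deposited lists give each peak's fold enrichment over local background, which is a ratio, and its −log10 p-value and −log10 q-value; the lowest −log10 q-value was 1.30. Positions are in bp of GRCm38 and are printed from 1. Read depth is not in the lists, and absence of a peak means that MACS2 called none there.

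Lists were merged (overlap of at least 1 bp), and regions found in 2 or more libraries were kept. Genes and starts of protein-coding transcripts came from GENCODE M21, and a promoter reached 3 kb from a start. For percentiles, fold enrichment was ranked among the peaks of a list. For scores, the highest fold enrichment of a region was ranked in each library among the tested regions, with absent ones tied at the bottom. Only 32.4% to 39.4% of the values in a list are distinct, so ties are common and took the mean rank. Normal scores of the 70627 regions in at least 5 libraries were compared in R 4.3.3 by limma 3.58.1 (a mean for each of the groups) with Benjamini-Hochberg adjustment at 0.05 over all tested regions, and over 15062 genes for promoters. The study's DiffBind test needs alignments, which were not used here. Nothing in the labels says whether libraries came from separate animals, so p-values measure the spread between these libraries, which may be technical.

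Members are named with their number of regions; results of some members are not reported here, but they stay in all counts. Values by library are given for the 3 regions of each class with the largest change among those called in WT (for glycine receptors, in p27KO) and for called promoters; other regions were named after their values were seen. The members, the synapse genes and the marker lists were chosen with earlier results of these data known. Alternatives were another ranking, region filters, equal list length, a stricter q-value, summit clusters, other promoter definitions, fits of the compared groups alone, a replicate block and leaving out each library.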

Additional observations from a re-analysis of the deposited data

How the results depend on the processing

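Depth limits these results, since a list's length decides which regions count as absent and reads per library are unknown. Leaving out each library gave 34 to 56 receptor regions called in WT and 16 to 36 in p27KO, 0 to 2 promoters called in WT, 0 to 1 regions called for p27KO against WT at PRO (Gabrb1 at chr5:72094492-72095120, without either p27KO DIFF replicate), 12 to 34 regions that closed in WT and 41 to 61 in p27KO, and 15 to 30 that opened in WT and 23 to 45 in p27KO. With a peak required in all 10 libraries, 24 regions were called in WT and 5 in p27KO, since fewer regions were tested, and 1 promoter in WT. Promoters called in WT numbered 1 when ranked by −log10 p-value, and 0 with regions in at least 2 libraries, with summit clusters or with the compared groups alone. With equal list length 1 promoter was called in p27KO, that of Grm4 (0.97, adjusted p = 0.0434, against −0.26 and 0.596), and 21 regions closed and 31 opened in p27KO. With summit clusters 1 region was called for p27KO against WT at DIFF, in Grm3 (−2.02, adjusted p = 0.0452); the merged region there had a change of −0.02. For shifts without a stated construction, the cause was not tested. Other alternatives, 104 of 114 values, left the counts within 1.5 times. Many of these were counts of 0 that stayed at 0, so this share says little of the other counts.

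With the replicate number as a block shared by both genotypes, 60 regions were called in WT and 39 in p27KO, with 2 and 0 promoters and 0 in the other contrasts. The numbers did not pair the samples: deviations of same-numbered libraries correlated at 0.057, 0.065 and 0.033 in WT and −0.141 in p27KO, although each WT library correlated best with its own number. Another block, chosen after seeing the data, crossed the p27KO numbers and was separate for each genotype. It gave 67 regions in WT and 45 in p27KO, with 2 and 0 promoters. For the regions named by the class rule, 0 of 306 values under other alternatives and 0 of 380 without a library changed direction, 7 and 25 lost the call, and 5 and 3 gained it. These regions were chosen by the size of their change in the same data. An unchanged direction is thus no independent support for it. Regions found in exactly 5 libraries of 1 condition drop out when any of these is left out, so these values say nothing of their stability. The Glra1 region, found in exactly 5 libraries of both conditions, drops out in the same way.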

Other observations

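Grik5, which encodes a high-affinity kainate receptor subunit, had a promoter peak in all 10 libraries and yet at the bottom of each list. The fold enrichment at this promoter was between 2.05 and 2.77, with percentiles from 0.14 to 2.61, whereas the median promoter percentile of receptor genes found in every library was 72.2.

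An intronic region of Gabrb1 at chr5:72094492-72095120 had no peak in the 3 WT PRO libraries and percentiles of 28.2, 27.1 and 52.2 in WT DIFF. In p27KO it had 54.3 and 58.6 in PRO, none in DIFF replicate 1 and 67.2 in DIFF replicate 2. Its change was 1.43 ± 0.33 in WT (limma, adjusted p = 0.0115) and −0.33 ± 0.41 in p27KO (adjusted p = 0.669), and the difference between genotypes was −1.76, with an unadjusted p = 0.00629 and an adjusted p = 1. The region was chosen after its values were seen.

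Near the limit of the promoter window, the receptor regions just inside it were those of Gabrr2 at 2368 bp, found in 4 libraries, and Gabrg3 at 2568 bp, found in all 10. Just outside were those of Gabra2 at 3192 bp, found in 8 libraries, and Grik5 at 3361 bp, found in 7.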
